A study of Arabidopsis thaliana with 6 samples.

Results

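The genes described here make and remove abscisic acid, the plant hormone that holds seeds dormant and closes stomata under drought. They are 9 loci, 5 of synthesis (*NCED3*, *NCED6*, *NCED9*, *ABA2* and *AAO3*) and 4 of catabolism (*CYP707A1*, *CYP707A2*, *CYP707A3* and *CYP707A4*), among 29030 loci with a probe on the array. A probe was assigned to a locus by the code in its annotation, which gave 13 probes for the 9 loci, 1 to 3 for each. *Arabidopsis thaliana* seedlings of cultivar Col, either wild type or the mutant *hy5* (SALK_096651), were harvested after 3 days under continuous white light on Murashige and Skoog medium lacking sucrose, at 22 °C. HY5 is a bZIP transcription factor of light responses, and every *hy5* array carries the same single insertion allele. Seedling RNA, labeled with Cy3, was read on 6 one-color arrays from Agilent, with 3 arrays for each genotype. Nothing in the labels or methods says whether the 3 arrays of a genotype came from separate plant samples, so p-values measure the spread between these arrays, which may be technical.

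In the plastid the NCED dioxygenases cut cis-epoxycarotenoids to xanthoxin, the step regarded as rate-limiting for abscisic acid. Xanthoxin is turned into abscisic aldehyde by ABA2, a short-chain dehydrogenase, and the aldehyde into the hormone by AAO3, an aldehyde oxidase. The CYP707A enzymes hydroxylate abscisic acid and so start its breakdown. The balance of both sides sets the level of the hormone, which falls when a seed germinates. The arrays measure transcripts only, and neither the hormone nor enzyme activity was measured.

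Each value is a spot's background-subtracted intensity divided by the 75th percentile of its array. That percentile lay at 487 to 558 intensity units on the wild-type arrays and at 981 to 1057 on the *hy5* arrays, a mean difference of 0.93 on the log2 scale, so all changes are relative to it. The 10 spike-in control probes had unscaled ratios of *hy5* to wild type between 0.621 and 1.01. Between 67.0% and 78.7% of spots per array were well above background, and no spot was saturated. The wild-type arrays shared one slide and scan and the *hy5* arrays another, so slide and genotype cannot be told apart. *HY5* itself (AT5G11260) had signals of 1.32, 1.38 and 1.24 in wild type and 0.0217, 0.0283 and 0.0169 in *hy5*, in keeping with the labels. Genotypes were compared with limma over 21590 genes, each well above background on every array of 1 genotype or both. A gene counts as called here when its difference reached 2-fold and its p, adjusted after Benjamini and Hochberg, was under 0.05.

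Of the 9 genes, 7 could be tested, all of them well above background on all 6 arrays. The 9 were chosen with earlier results of these data known, so their counts are a description. *NCED3* and *NCED9* were called higher in *hy5* and no gene was called lower, where 6.55% of all tested genes were called higher and 4.84% lower (11.4% in either direction). By the adjusted p alone, *CYP707A1* and *CYP707A3* were also higher and *AAO3* was lower, making 4 higher and 1 lower, where 26.3% of all tested genes were higher and 26.6% lower by that rule (52.8% in either direction). *ABA2* and *CYP707A2* did not pass the test. *NCED6* and *CYP707A4* were too dim to be tested. The signals of the genotypes did not overlap at 5 of the 7 genes, and they did not overlap at 62.5% of all tested genes.

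**Figure D1:**
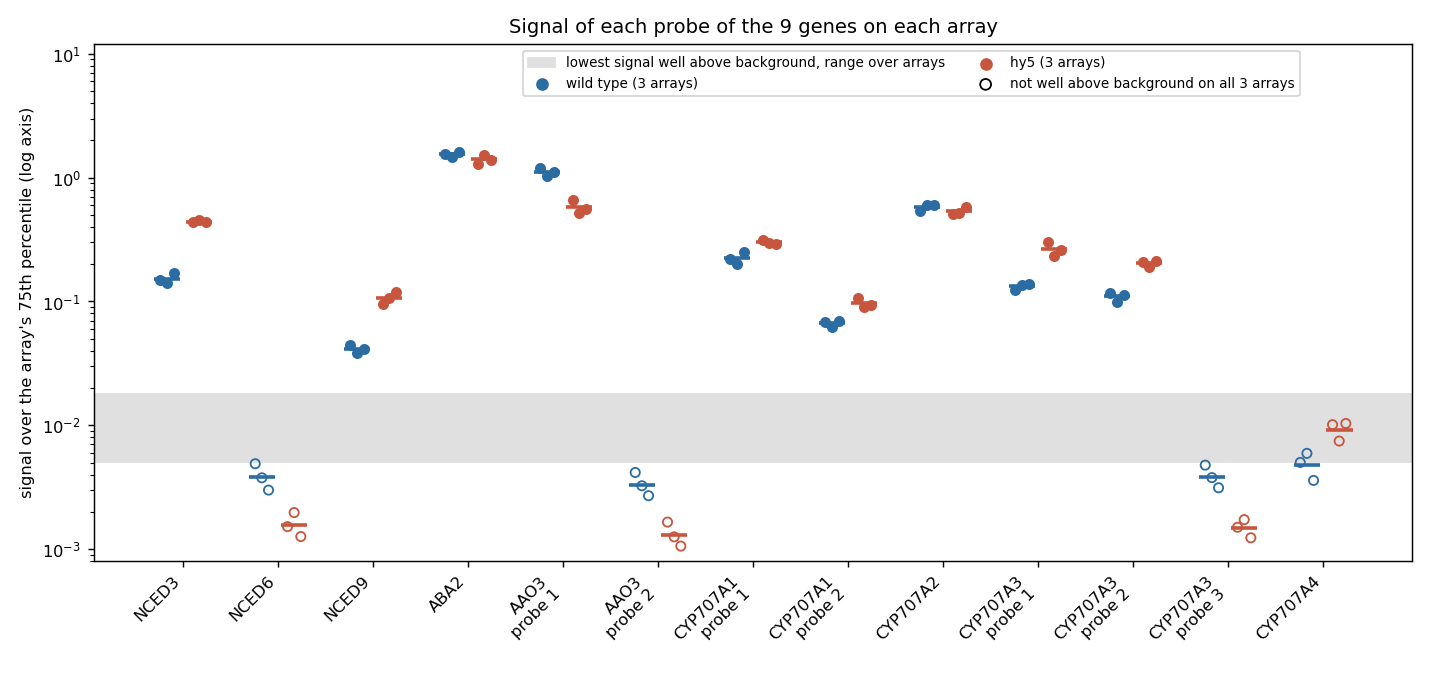
Signal over the array's 75th percentile (vertical log axis) at each of the 13 probes, with 1 point per array and a line at the mean of the log2 values for wild type (blue) and *hy5* (red). Open points mark genotypes in which the probe was not well above background on all 3 arrays, and 9 probes lie above the grey band of the lowest signals well above background.

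*NCED3* (AT3G14440) encodes the dioxygenase that answers drought in vegetative tissue. Its signals were 0.150, 0.142 and 0.169 in wild type and 0.435, 0.452 and 0.436 in *hy5*. All 3 mutant arrays lay close together and well above all 3 wild-type arrays. The log2 difference was 1.53 (standard error 0.0969, limma adjusted p = 4.03e-05), a 2.89-fold higher signal in *hy5* with a 95% confidence interval of 2.47 to 3.38. This difference exceeded that of 97.3% of all tested genes. Under normexp, a background correction used here with an offset of 50, *NCED3* stood at 0.95, below the 2-fold limit (limma adjusted p = 3.87e-07). An added offset shrinks log2 differences, most of all at dim probes, and normexp was not run without it.

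*NCED9* (AT1G78390), a dioxygenase gene best known from developing and imbibed seeds, was much dimmer. Its signals were 0.0447, 0.0386 and 0.0411 in wild type and 0.0952, 0.107 and 0.118 in *hy5*, with no overlap. The log2 difference was 1.36 (standard error 0.112, limma adjusted p = 0.000103), 2.57-fold higher in *hy5*. The wild-type intensities were 21.5 to 22.9 before scaling, below the offset of 50 used with normexp. With normexp and that offset the log2 difference was 0.15 (limma adjusted p = 0.129), which ends the call. How much of this drop the offset alone made was not tested.

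*ABA2* (AT1G52340) had signals of 1.54, 1.47 and 1.62 in wild type and 1.30, 1.53 and 1.39 in *hy5*, and the genotypes overlapped. Its log2 difference, -0.14, had a 95% confidence interval of -0.37 to 0.09 (limma adjusted p = 0.27). A change of 2-fold in either direction lies outside that interval, on the scale of the 75th percentile. Unscaled, the log2 difference was 0.80.

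*AAO3* (AT2G27150) was the only one of the 7 tested genes that was lower by the adjusted p. Its main probe, annotated to transcript AT2G27150.1, had signals of 1.19, 1.03 and 1.12 in wild type and 0.664, 0.515 and 0.559 in *hy5*. Every mutant array was below every wild-type array. The log2 difference was -0.95 (standard error 0.121, limma adjusted p = 0.000634), a 1.93-fold lower signal in *hy5*, just short of the 2-fold limit. It passed that limit without wild-type replicate 2 or without *hy5* replicate 1, and leaving out arrays one at a time gave log2 differences from -1.05 to -0.87. The fall is one relative to the 75th percentile. The unscaled intensities were 582, 572 and 623 in wild type and 676, 505 and 591 in *hy5*, which overlap, and scaled to the spike-in probes the log2 difference was 0.47.

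**Figure D2:**
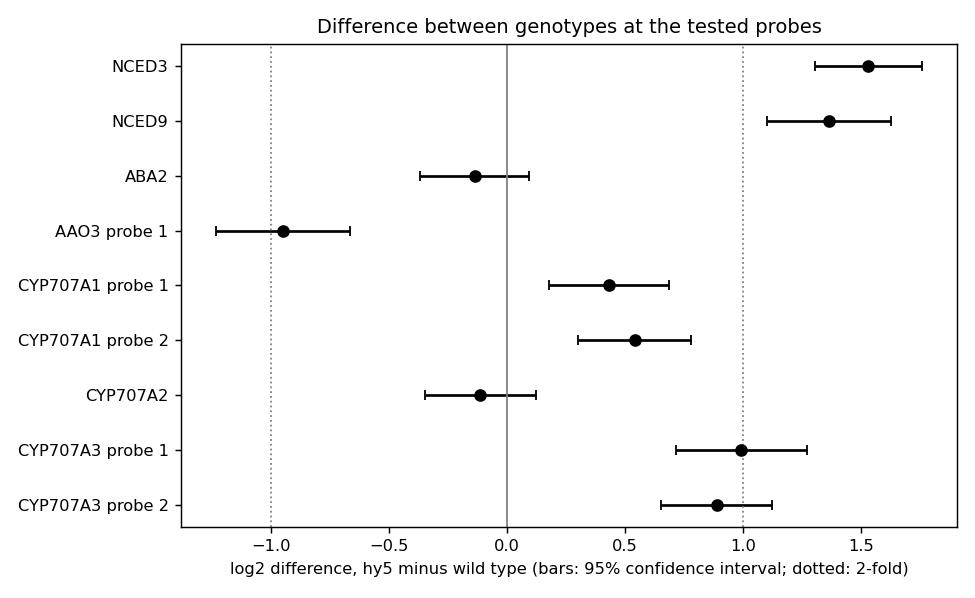
Log2 difference between *hy5* and wild type (horizontal axis) at the 9 tested probes, with 95% confidence intervals from a limma fit over all tested probes and dotted lines at 2-fold. *NCED3* and *NCED9* lie wholly above the upper line, *AAO3* lies on the negative side, and the paired probes of *CYP707A1* and of *CYP707A3* lie close to each other.

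On the catabolic side, *CYP707A3* (AT5G45340), a hydroxylase gene of vegetative tissue, had the highest difference of the 3 tested genes. Its brightest probe, annotated to transcript AT5G45340.2, had signals of 0.124, 0.135 and 0.138 in wild type and 0.303, 0.232 and 0.258 in *hy5*. The groups were well apart, with *hy5* replicate 1 highest. The log2 difference was 0.99 (standard error 0.119, limma adjusted p = 0.000487), 1.99-fold, so it missed the 2-fold limit by a margin far smaller than its error. Leaving out any of 4 arrays (wild-type replicates 2 and 3, *hy5* replicates 2 and 3) carried it past the limit. With normexp the log2 difference was 0.46.

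A second *CYP707A3* probe, annotated to AT5G45340.1, had signals of 0.116, 0.0998 and 0.114 in wild type and 0.208, 0.190 and 0.212 in *hy5*. Here the log2 difference, 0.89 with a standard error of 0.101 (adjusted p = 0.000402 by limma over all tested probes), differed from that of the first probe by less than the standard errors of both together. The remaining probe, also annotated to AT5G45340.2, was above background on no array.

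*CYP707A1* (AT4G19230), a hydroxylase gene of maturing seeds and guard cells, rose less. Its signals were 0.221, 0.200 and 0.252 in wild type and 0.316, 0.295 and 0.294 in *hy5*. The lowest mutant array was above the highest wild-type array by a small step. The log2 difference was 0.43 (standard error 0.109, limma adjusted p = 0.0125), 1.35-fold. Its dimmer probe gave 0.54 (standard error 0.103, limma adjusted p = 0.00367 over all tested probes), from signals of 0.0678, 0.0621 and 0.0701 in wild type and 0.107, 0.0904 and 0.0942 in *hy5*. Both probes therefore had the same direction without overlap. With normexp the difference of the brighter probe was 0.12 (adjusted p = 0.288).

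*CYP707A2* (AT2G29090) encodes the hydroxylase that lowers abscisic acid in imbibed seeds. Its signals were 0.534, 0.604 and 0.602 in wild type and 0.511, 0.515 and 0.582 in *hy5*, which overlap. The log2 difference was -0.11, with a 95% confidence interval of -0.35 to 0.12 (limma adjusted p = 0.368), and as for *ABA2* a 2-fold change lies outside the interval. Unscaled, the log2 difference was 0.82.

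**Figure D3:**
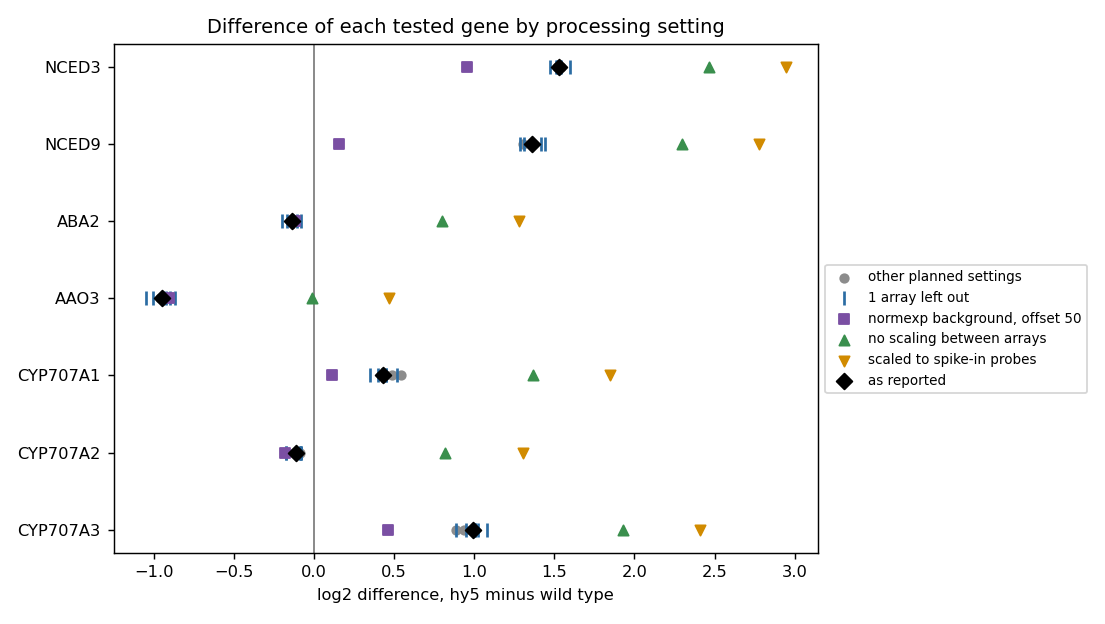
Log2 difference between *hy5* and wild type (horizontal axis) of the 7 tested genes (rows) under each processing setting, with black diamonds for the reported values and blue ticks with 1 array left out. Normexp (purple) brought *NCED9* to 0.15, and with no scaling (green) or spike-in scaling (orange) every gene lay further to the right.

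The median log2 difference of the 4 tested synthesis genes was 0.61 and that of the 3 tested catabolic genes 0.43, against -0.0044 over all 21590 genes. The synthesis median falls in the gap between *ABA2* at -0.14 and *NCED9* at 1.36, with no gene near it. The 4 synthesis genes ranged from -0.95 to 1.53, so that dioxygenase and aldehyde oxidase transcripts lay at opposite ends, while the catabolic genes ranged from -0.11 to 0.99. On the deposited table, which holds all 13 probes, the 7 differences moved by less than 0.01 and their calls were the same. That table holds the same intensities over other divisors, so it is no separate check.

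**Figure D4:**
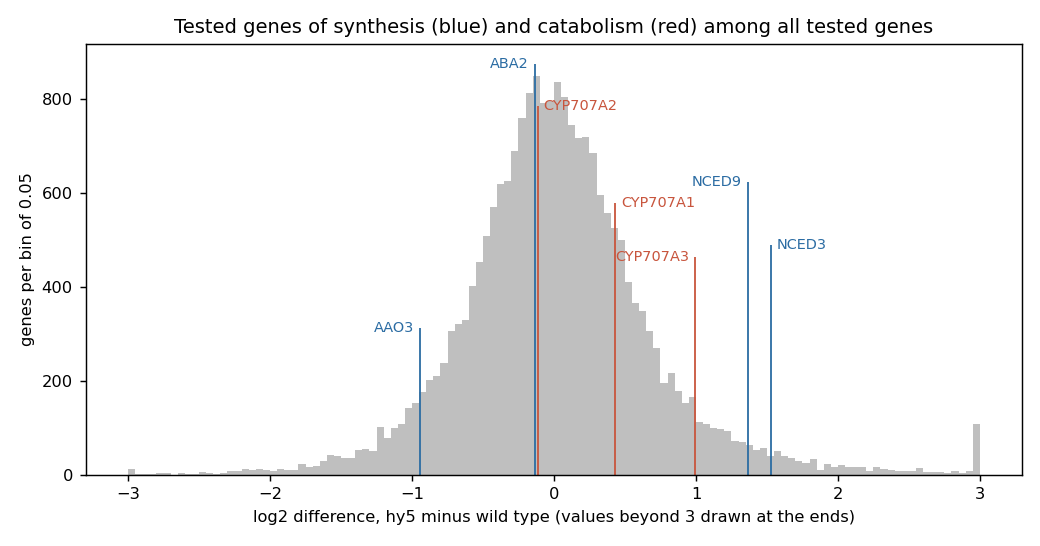
Number of genes (vertical axis) by log2 difference between *hy5* and wild type (horizontal axis) over all tested genes, with lines at the 7 tested genes of synthesis (blue) and catabolism (red). *ABA2* and *CYP707A2* stand near the centre, *NCED3* and *NCED9* in the upper tail and *AAO3* in the lower.

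Probes near background carry little. *NCED6* (AT3G24220), a dioxygenase gene of the endosperm, stayed below the limit for well above background on all 6 arrays, where its unscaled intensity was 1.67 to 2.38 on wild-type arrays and 1.34 to 1.94 on mutant arrays. The second *AAO3* probe, annotated to AT2G27150.2, and the remaining *CYP707A3* probe were equally dim. At these 3 probes the ratio of *hy5* to wild type was 0.382 to 0.408 scaled and 0.734 to 0.783 unscaled. No level or direction is given for them. *CYP707A4* (AT3G19270) was above background on 2 of the 3 *hy5* arrays and on no wild-type array. Its signals were 0.00501, 0.00593 and 0.00359 in wild type and 0.0101, 0.00746 and 0.0103 in *hy5*, all below 0.012, the lowest signal that the wild-type arrays counted as well above background, so no fold is given.

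The genes next to these loci on the chromosome were compared as a description. Of the 18 nearest protein-coding neighbors, 12 were tested and none was called by limma, where 11.4% of all tested genes were called in either direction. An adjusted p under 0.05 was reached by 5 of the 12, and by 52.8% of all tested genes. The neighbors of *NCED3*, AT3G14430 and *CID9*, were among those 5, with log2 differences of 0.82 and 0.66. The others were *GSTU19* beside *NCED9* (0.63), AT1G52330 beside *ABA2* (0.73) and *ftsh3* beside *CYP707A2* (-0.42).

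Other genes of the pathway were taken as 7 lists with 45 genes, and all 45 were tested. By limma 10 were called higher and 1 lower, where 6.55% of all tested genes were called higher and 4.84% lower. The lists were chosen with earlier results of these data known, so these counts are a description and test nothing about the pathway. Of the 10, *ABI4*, *UGT71B8* and AT4G27250 were well above background on every array only in *hy5*. The median log2 difference of the 45 was 0.15. The 5 other synthesis genes had none called. *ABA1*, the zeaxanthin epoxidase that supplies the epoxycarotenoids, was lower with a log2 difference of -0.73 (adjusted p = 0.00207), and *ABA3*, the molybdenum cofactor sulfurase that AAO3 needs, was lower with -0.90 (adjusted p = 0.00355). *NCED5* was higher with 0.70 (adjusted p = 0.00196). *ABA4* and *NCED2* did not pass, with 0.15 and 0.11. *ABA3* and *AAO3*, cofactor enzyme and oxidase, were both lower on this scale, by amounts under 2-fold, though *ABA3* was far dimmer than *AAO3*. Without scaling every log2 difference rises by 0.93, and of the pathway genes named here as lower only *AAO3* and *DTX50* then stay below 0.

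Of the 7 genes for conjugation, release and later breakdown, 2 were called higher. *UGT71B8*, a glucosyl transferase gene, had signals of 0.0216, 0.00493 and 0.0148 in wild type and 0.158, 0.190 and 0.167 in *hy5*, a log2 difference of 3.88 (limma adjusted p = 0.000534). AT4G27250, which has no name in the gene table, was 2.36-fold higher (limma adjusted p = 0.00167). Both were well above background on 2 of 3 wild-type arrays, so they were tested through *hy5* only. When all 6 arrays had to be well above background, 0 genes of this list were called higher. With normexp the number was also 0. *UGT71B6*, a glucosyl transferase that conjugates abscisic acid, was lower with -0.71, and *BGLU18*, a glucosidase that releases the hormone from its glucose ester, was higher with 0.47, and neither reached 2-fold. Another *BGLU18* probe, with 0.27, did not pass.

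Among 6 transporters, *DTX50*, an efflux carrier of abscisic acid, was the one called gene. Its signals were 1.14, 1.07 and 1.21 in wild type and 0.488, 0.529 and 0.491 in *hy5*, 2.27-fold lower in the mutant (limma adjusted p = 8.0e-05). Among 9 receptors *PYL2* was called higher, with a log2 difference of 1.47 (limma adjusted p = 0.000129), and the receptors *PYR1*, *PYL5* and *PYL7* were lower by the adjusted p alone. *PYL5* passed at its brightest probe only (log2 difference -0.47, limma adjusted p = 0.046), with -0.25 and -0.31 at the other two, which did not pass. The median of the receptors was -0.18. None of the 3 SnRK2 kinases was called, with *SNRK2.3* at 0.81, *SNRK2.2* at 0.42 and *SNRK2.6* at -0.36. The other two *SNRK2.6* probes had 0.19 and -0.22 and did not pass.

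All 7 transcription factors of the response passed the adjusted p, 4 of them higher and 3 lower. Of all tested genes 52.8% passed by that rule, 26.3% higher and 26.6% lower. *ABI3*, *ABI4* and *ABI5*, which act in seeds and at germination, were called higher, and *ABF2*, *ABF3* and *ABF4*, bZIP factors of the vegetative response, were lower by the adjusted p alone (log2 differences of -0.75, -0.29 and -0.66). *ABI5* had signals of 0.0924, 0.131 and 0.125 in wild type and 0.548, 0.485 and 0.537 in *hy5*, a 4.55-fold difference. *ABI3* had a log2 difference of 1.50 at its brightest probe. *ABI4* had signals of 0.0251, 0.00932 and 0.017 in wild type, above background on 2 of 3 arrays, and 0.555, 0.570 and 0.818 in *hy5*. *ABF1*, of the same bZIP group as *ABF2*, *ABF3* and *ABF4*, was higher by the adjusted p alone, with a log2 difference of 0.65 (limma adjusted p = 0.00551). Of 8 response genes, 4 were called higher: *RD29B* (log2 difference 2.62), *RAB18* (3.68), *EM1* (4.73) and *EM6* (3.12). *RD29A*, *RD26* and the other 2 did not pass the test. At the 3 *RAB18* probes that were above background on all arrays the log2 difference was 2.29 to 3.68. The dimmer *EM1* probe, above background on no wild-type array, had 1.06 against 4.73 at the brighter probe.

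**Figure D5:**
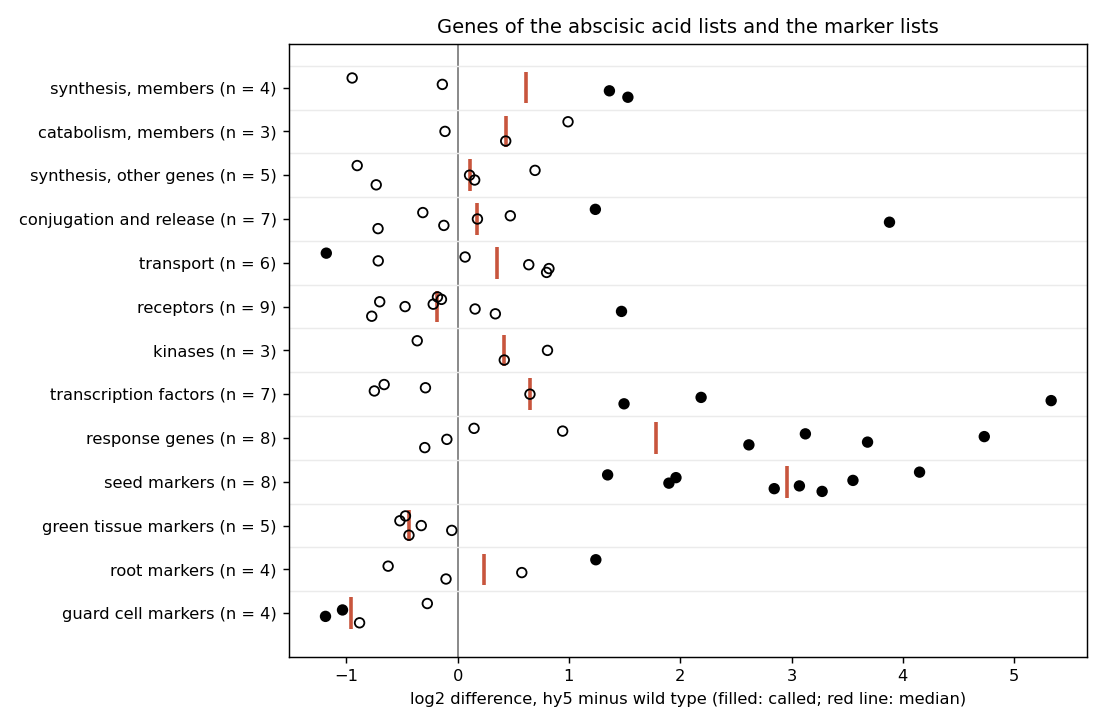
Log2 difference between *hy5* and wild type (horizontal axis) of each tested gene, by list (rows), with called genes filled and the median of each list in red. Every list holds called genes except the catabolic members, the other synthesis genes, the kinases and the green tissue markers, and all 8 seed markers lie to the right.

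Markers of the tissues a seedling holds moved too, where 6.55% of all tested genes were called higher and 4.84% lower. By the adjusted p alone, 26.3% of all tested genes were higher and 26.6% lower. The marker lists, too, were chosen with earlier results of these data known, so their counts are a description. All 8 seed markers, 7 of storage proteins and oil bodies and the peroxiredoxin gene *PER1*, were called higher in *hy5*. Of these, 5 were above background on all 6 arrays. *CRU2* and *OLEO2* were above background on 2 of 3 wild-type arrays and *SESA1* on none, so they entered the test through *hy5* only. The summed signal of the 8 was 0.569 to 1.38 on wild-type arrays against 4.85 to 11.8 on mutant arrays. Of the 4 guard cell markers 2 were called lower and 3 were lower by the adjusted p, with summed signals of at least 1.81 on wild-type arrays and at most 1.21 on mutant arrays. *AAO3* transcripts, lower here, are known from guard cells and vascular tissue. *CYP707A1*, also a gene of guard cells, was higher, with a log2 difference of 0.43. Of the 5 green tissue markers none was called and 4 were lower by the adjusted p alone, with a median log2 difference of -0.44 and summed signals of 1271 to 1509 on wild-type arrays against 1014 to 1096 on mutant arrays. The 4 tested root markers went both ways. *PHT1;1*, a phosphate transporter gene, was called higher with a log2 difference of 1.24, and *COBL9* was higher by the adjusted p alone with 0.58, while *SCR* was lower by the adjusted p alone with -0.62 and *RHD6* did not pass with -0.10. Their summed signal was 19.4 to 24.4 on wild-type arrays and 27.8 to 33.8 on mutant arrays, and *PHT1;1* alone went from between 6.72 and 10.2 to between 16.9 and 21.7. The part of these shifts in the changes of the synthesis and catabolism genes was not tested. In RNA of whole seedlings, fewer cells of a type and less RNA per cell cannot be told apart.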

How the data were processed

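Transcripts of wild type and *hy5* seedlings were measured on 3 one-color arrays each. For every array the authors deposited scanner output (Agilent Feature Extraction 10.7.3, from the submitters' processing notes), whose spot values are intensity after subtraction of background. A second deposited file, with 38464 entries, holds each intensity as a ratio to the 75th percentile of its array, with divisors of 564 to 1228.

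The processed signal was divided by the 75th percentile that all non-control spots of its array gave, and then put on a log2 scale. Replicate spots were averaged, and outlier flags removed 30 probes. Testing required a probe well above background on every array of 1 genotype or both. The brightest such probe stood for its gene. The test was limma's moderated, two-sided test (lmFit, eBayes; limma 3.58.1, R 4.3.3). The procedure was tested on simulated arrays.

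All members were named, and of the other lists the called genes in full. The members and lists were chosen with earlier results of these data known, and the 2 scalings without a percentile were added after the values were seen. Gene symbols are those of TAIR10.1, where 28595 of 29030 locus codes were found, and it also gave the order of neighbors but no coordinates. Sequences were not analysed here. Normexp was run on median spot signals. The alternatives covered background correction, normalization, the filter, genes with several probes, the prior, the deposited ratios, the methods' t-test, a block for replicate number and omission of each array.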

Additional observations from a re-analysis of the deposited data

How the results depend on the processing

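The 7 tested genes gave 149 differences under other settings, and in 139 neither the direction nor the side of an adjusted p of 0.05 changed. Settings of the filter, the prior and the replicate block left the log2 differences as they were, so only the adjusted p could change there. The 2-fold limit is not part of this count, and *NCED3* with normexp is among the 139 although its call was lost. Leaving out 1 array moved *NCED3* between 1.47 and 1.60, *NCED9* between 1.29 and 1.44, *AAO3* between -1.05 and -0.87, *CYP707A1* between 0.35 and 0.52 and *CYP707A3* between 0.89 and 1.08. It gave 2 to 3 members called higher and 0 to 1 called lower. With normexp *NCED9* was at 0.15 and *CYP707A1* at 0.12, 0 members were called higher and 2 were higher by the adjusted p, 529 genes in all were called higher, and the median of all genes was -0.20. Without a filter on dim probes 1 member (*NCED6*, above background on no array) was called lower, 2 were lower by the adjusted p, and 3664 genes in all were called lower. With the methods' t-test after adjustment *CYP707A1* (0.43) and *CYP707A3* (1.00) had adjusted p of 0.0642 and 0.0629, 2 members were higher by the adjusted p and 868 genes in all were called higher.

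Both settings without a percentile, chosen after seeing the data, moved the median of all genes. With no scaling between arrays that median was 0.93, *ABA2* was at 0.80, *AAO3* at -0.013 and *CYP707A2* at 0.82, with 4 members called higher, 0 lower by the adjusted p, and 9614 genes called higher and 117 lower. Scaled to the spike-in probes, the median was 1.41, *ABA2* was at 1.28, *AAO3* at 0.47 and *CYP707A2* at 1.30, with 6 members called higher, 0 lower by the adjusted p, and 16845 genes called higher and 36 lower. The share of higher genes among those called was 57.5%, against 42.2% with normexp, 27.4% without a filter, 98.8% unscaled and 99.8% with spike-ins. When all 6 arrays had to be well above background it was 48.3%, with 945 genes called higher and 1013 lower. The cause of these shifts was not tested.

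Deviations from the genotype means correlated at -0.037, -0.087 and 0.076 between arrays sharing a replicate number, which gives no pairing. With a replicate block 2 members were called higher, as without it, and 1420 genes in all were called higher and 1050 lower. A slide block was not run, because 0 slides hold both genotypes. Signal over background limits *NCED6* and *CYP707A4*.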
